A study of Gallus gallus with 23 samples.

Results

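The small leucine-rich proteoglycans are secreted matrix proteins whose core is a curved run of leucine-rich repeats, most of them carrying glycosaminoglycan chains. Many bind collagen fibrils and affect how thick the fibrils grow and how they are spaced, and several also bind growth factors of the TGF-beta family. In cartilage they lie among the type II collagen fibrils with aggrecan, and they are also abundant in tendon, cornea and bone.

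The genes described here are 6 of this family: FMOD (fibromodulin), LUM (lumican) and KERA (keratocan), which carry keratan sulfate or its unsulfated precursor, EPYC (epiphycan) and OGN (osteoglycin), which form another branch, and DCN (decorin), which carries a chondroitin or dermatan sulfate chain. The genes were taken by symbol, and each was read from the probe set that carries its symbol alone, and where a gene had several, the one with the highest mean over the 23 arrays would have been taken. Of the 6 genes, 5 had a probe set, 1 each, of 11528 genes with a single symbol on the array: FMOD (probe set 15480553), LUM (15399300), KERA (15399294), EPYC (15399286) and OGN (15418960). All 5 passed the filter on variation described below. No probe set in the annotation used carries the symbol DCN alone, so decorin is not analysed here. In the RefSeq gene order of the chicken, EPYC, KERA, LUM and DCN are neighbours in that order, FMOD neighbours PRELP, and OGN stands beside OMD.

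The samples were growth cartilage of chicken embryos from the distal femur and the proximal tibiotarsus (TBT), with tissue of 4 embryos pooled for each replicate. Vehicle-treated controls were taken at embryonic day (E) 12, E13 and E15, and immobilised embryos at E15. Those were treated from E10 with decamethonium bromide, which blocks the neuromuscular junction and causes rigid paralysis. Each group had n = 3 arrays, except the E15 control femur with n = 2. The paper planned 3 replicates per group and left out a sample as an outlier, judged by eye on a principal component analysis. It does not name that sample, and the E15 control femur is the only group short of 3. All eggs were opened and dosed with vehicle or drug from E10, so no embryo was undisturbed. The immobilised embryos model paralysis of the whole body, not unloading of 1 joint. The tissue was a whole growth cartilage, so fewer cells of a type and less RNA per cell cannot be told apart.

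Values are log2 values after robust multi-array averaging (RMA), so a difference of 1 is a doubling on the array's scale. Levels of different genes were not set against each other, since each probe set has its own brightness. A gene is said to have changed where its adjusted p in a limma fit of all 8 groups was under 0.05 over the 11004 probe sets tested.

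Array medians lay between 5.78 and 5.85. All 16 genes of a chondrocyte list on the array, which holds matrix genes and SOX transcription factors, and all 5 proteoglycan genes were above the array median on every array. Of 21 skeletal muscle genes, 2 were above it on every array and 3 on none. E13 femur replicate 3 stood apart from its group in several of the genes described here. Its KERA value was 9.99, beside 8.57 and 8.94 in the other E13 femur arrays. Its FMOD value was 9.65, beside 10.54 and 11.11. In the same array the muscle list had a mean deviation of 0.90, beside 0.42 and 0.61, and the chondrocyte list of -0.13, beside 0.17 and 0.08. The part of these lists in the 2 values was not tested.

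**Figure D1:**
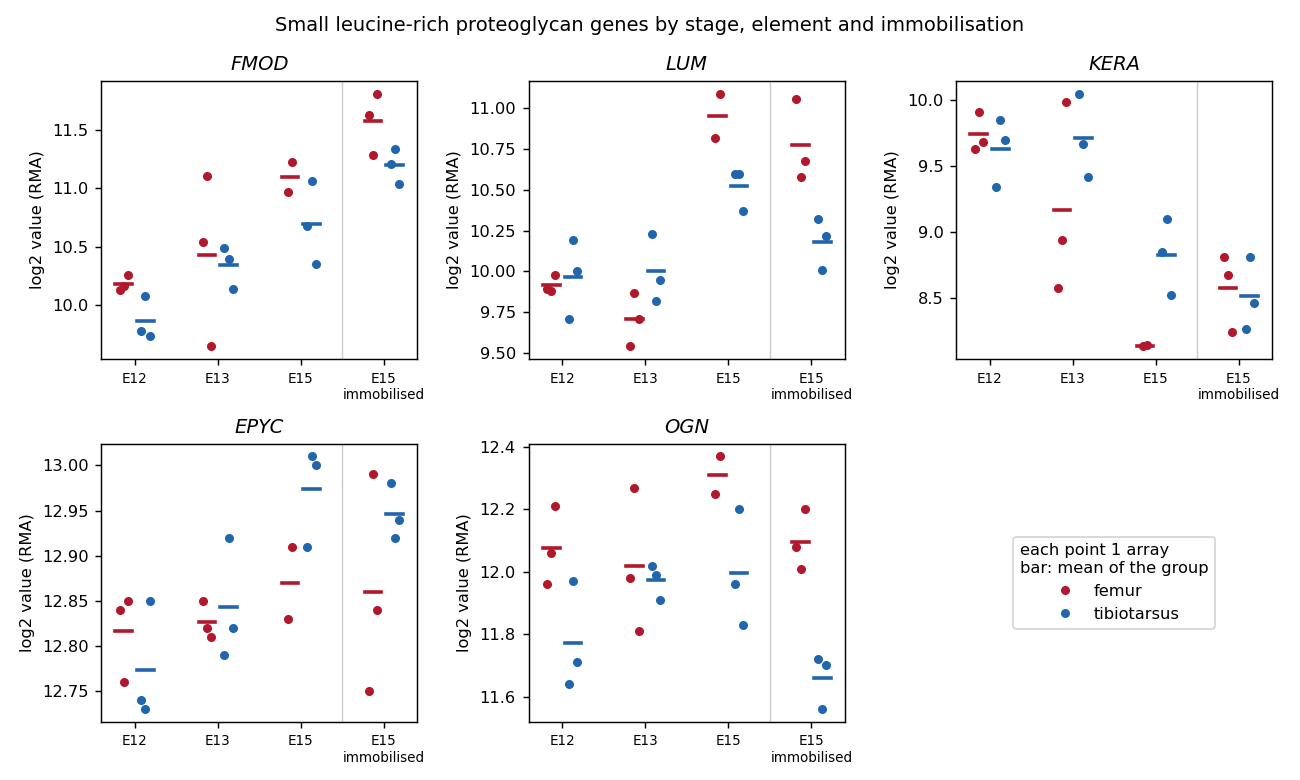
Log2 values (RMA) of FMOD, LUM, KERA, EPYC and OGN on the 23 arrays, by stage and treatment on the horizontal axis, in femur (red) and tibiotarsus (blue). Each point is 1 array and each bar a group mean; the panels have different vertical scales. E15 control arrays lie above all E12 and E13 arrays for LUM and below all of them for KERA, in each element.

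The first question was how the family differed between E15 and the earlier days in control cartilage. LUM rose and KERA, its neighbour in the genome, fell, and both did so in femur and in TBT. FMOD was higher at E15 in both elements without passing the threshold. EPYC and OGN differed by less than 0.3 log2 units. Here and below, arrays that did not overlap are a description of few arrays, without a count over all probe sets.

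Lumican is a keratan sulfate proteoglycan of cornea and cartilage that limits fibril thickness. In the femur, LUM was 9.89, 9.88 and 9.98 at E12, 9.54, 9.87 and 9.71 at E13, and 10.82 and 11.09 at E15. Both E15 arrays were above every earlier femur array, the nearest being 9.98. The difference between E15 and the mean of E12 and E13 was 1.14 (SE 0.15, adjusted p = 0.000356), which is 2.21 times on the linear scale of the array.

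In the TBT, LUM was 9.71, 10.19 and 10 at E12, 10.23, 9.82 and 9.95 at E13, and 10.60, 10.60 and 10.37 at E15. The E15 arrays again did not overlap the earlier ones. The difference was 0.54 (SE 0.13, adjusted p = 0.013), or 1.45 times. The rise was 0.60 log2 units larger in the femur than in the TBT (SE 0.19), but this difference between the elements had an adjusted p of 0.319 and an unadjusted p of 0.0064.

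Keratocan was described in the cornea, where human mutations flatten the corneal surface, and its role in growth cartilage is less known. In the femur, KERA was 9.63, 9.91 and 9.68 at E12, 8.57, 8.94 and 9.99 at E13, and 8.13 and 8.14 at E15. The E15 arrays were the lowest of the femur controls, and the E13 group spanned most of the range between them and E12. KERA fell by 1.32 on the log2 scale (SE 0.28, adjusted p = 0.00663), to 0.401 times the earlier level. Without either E15 femur array the adjusted p was 0.0737 or 0.0813, with the difference nearly the same.

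In the TBT, KERA was 9.34, 9.85 and 9.70 at E12, 10.05, 9.67 and 9.42 at E13, and 8.85, 9.10 and 8.52 at E15. No E15 array reached the lowest earlier one, 9.34. KERA fell by 0.85 on the log2 scale (SE 0.24, adjusted p = 0.0339). This call was lost in 8 of 17 alternatives, and without E15 TBT replicate 3 the difference was -0.70 (adjusted p = 0.206). The fall did not pass the test of a difference between elements, which gave -0.47 for femur minus TBT (adjusted p = 0.661).

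**Figure D2:**
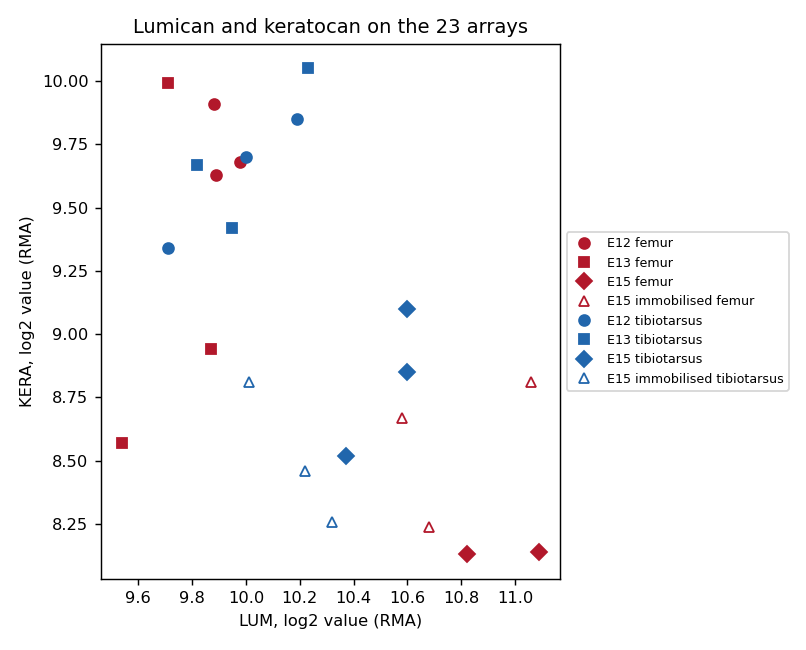
LUM (horizontal) against KERA (vertical), log2 values (RMA), 1 point per array for 23 arrays; colour gives the element, marker shape the day, and open markers the immobilised embryos. The E12 and E13 controls lie to the left, with LUM at most 10.23, and the E15 controls to the lower right, with KERA at most 9.10.

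Fibromodulin binds type I and type II collagen fibrils and is abundant in cartilage and tendon. FMOD in the femur was 10.13, 10.17 and 10.26 at E12, 10.54, 11.11 and 9.65 at E13, and 10.97 and 11.23 at E15. The E13 arrays ranged wider than all other femur controls together, and 1 of them overlapped E15. The difference at E15 was 0.79 (SE 0.26, adjusted p = 0.0546). It passed without E13 femur replicate 3 (0.59, adjusted p = 0.0456) and without E13 femur replicate 2 (0.96, adjusted p = 0.0118).

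FMOD in the TBT was 9.78, 10.08 and 9.74 at E12, 10.49, 10.40 and 10.14 at E13, and 10.68, 11.06 and 10.35 at E15. The lowest E15 array lay within the E13 range. The difference was 0.59 (SE 0.22, adjusted p = 0.105).

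Epiphycan was first found in chick epiphyseal cartilage and is largely a cartilage protein. EPYC varied least of the 5 genes. Its 23 values lay between 12.73 and 13.01, with a pooled SD within groups of 0.066 and group means within 0.20 of each other. The highest value of any probe set was 14.41, but each has its own brightness, so this cannot show whether EPYC neared its own ceiling. Whether its brightness narrowed its differences was not tested. In the femur it was 12.84, 12.76 and 12.85 at E12, 12.85, 12.82 and 12.81 at E13, and 12.83 and 12.91 at E15. In the TBT it was 12.74, 12.73 and 12.85 at E12, 12.79, 12.92 and 12.82 at E13, and 12.91, 13.01 and 13.00 at E15. The E15 arrays overlapped the earlier ones in both elements. The differences were 0.05 in the femur (95% interval -0.09 to 0.19, adjusted p = 0.673) and 0.17 in the TBT (0.04 to 0.29, adjusted p = 0.0783).

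Osteoglycin, also called mimecan, is found in bone, cornea and connective tissue. OGN in the femur was 11.96, 12.06 and 12.21 at E12, 11.98, 12.27 and 11.81 at E13, and 12.25 and 12.37 at E15. In the TBT it was 11.64, 11.97 and 11.71 at E12, 12.02, 11.99 and 11.91 at E13, and 11.96, 12.20 and 11.83 at E15. The stages overlapped in both elements. The differences were 0.26 in the femur (SE 0.12, adjusted p = 0.158) and 0.12 in the TBT (SE 0.10, adjusted p = 0.493).

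Thus 1 of the 5 genes rose and 1 fell in each element. Over all probe sets tested, 12.2% were called in either direction between the stages in the femur and 9.46% in the TBT. The median difference of the 5 was 0.26 in the femur and 0.17 in the TBT, beside 0.01 and -0.01 over all probe sets. No probe set at all was called for the difference between the elements in the change with stage (0%), where 1152 of 11004 had an unadjusted p under 0.05.

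Within the arrays of 1 code (the labels end in 05, 07 or 09, and their meaning is not given), the differences of LUM and KERA kept their signs. Within code 05, with 2 E15 and 2 E12 femur arrays, LUM differed by 1.07 and KERA by -1.64. All E13 femur arrays have code 07, which no other femur array has. In the femur, E13 therefore cannot be told apart from the code and could not enter this check. In the TBT, LUM differed by 0.66 and KERA by -0.70 within code 07, and by 0.58 and -0.71 within code 09. The code 09 differences rest on 1 E15 array.

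E13 was also set against E12 over both elements. None of the 5 genes was called, and neither was any other probe set (0%), while 822 had an unadjusted p under 0.05. FMOD was 0.36 higher and KERA 0.25 lower at E13, with adjusted p values of 0.717 and 0.854. LUM (-0.09), EPYC (0.04) and OGN (0.07) lay within 0.1 of no difference.

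Genes that make or meet the sugar chains and fibrils were listed beside the family. The counts of these lists and of the cell markers below stand beside the share of all probe sets called with stage. That share was 12.2% in the femur and 9.46% in the TBT. Of 12 collagen genes tested, 4 rose and none fell with stage in the femur, and 3 rose and none fell in the TBT, with medians of 0.27 and 0.13. The 3 that rose in both elements, COL6A1, COL6A2 and COL6A3, encode the chains of type VI collagen, the beaded-filament collagen around chondrocytes. COL6A2 was higher at E15 by 1.12 in the femur (adjusted p = 0.000427) and by 0.81 in the TBT (adjusted p = 0.001). COL14A1, a collagen of fibril surfaces, was the other in the femur (0.48, adjusted p = 0.0376), a call lost in 7 of 16 alternatives.

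Keratan sulfate is the chain of LUM, KERA and FMOD. Of 8 tested genes that build or sulfate it, 1 fell and none rose with stage in each element. That is near the share of all probe sets called, 12.2% in the femur and 9.46% in the TBT. The gene that fell was B4GALT4, a galactosyltransferase of the chain, lower by 0.31 in the femur (adjusted p = 0.00688) and by 0.32 in the TBT (adjusted p = 0.00254). The femur call was lost in 4 of 16 alternatives, with a difference of -0.20 with the array code as a block (adjusted p = 0.0944). The medians of the list were 0.06 and 0.12.

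Of 18 genes of the linker and of chondroitin and dermatan sulfate, 2 rose and 3 fell with stage in the femur, and none was called in the TBT. CSGALNACT2, which starts chondroitin chains, rose by 0.43 (adjusted p = 0.00239). CHST13, a chondroitin sulfotransferase, fell by 0.56 (adjusted p = 0.0129) in the femur, and CHPF, a chain-lengthening factor, fell by 0.62 (adjusted p = 0.0155). XYLT1 was the other that fell (-0.29, adjusted p = 0.032), a call lost in 6 of 16 alternatives. Without E15 femur replicate 2 the CHST13 difference was -0.28 (adjusted p = 0.335).

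Of 6 genes of sulfate and sugar-nucleotide supply, 2 fell in the femur and none was called in the TBT. SLC35B2, which carries the sulfate donor into the Golgi, fell by 0.75 (adjusted p = 0.00219). SLC35D1 was the other (-0.295, adjusted p = 0.0459), a call lost in 10 of 16 alternatives. Of 5 genes of proteoglycan processing and TGF-beta ligands, 2 rose in the femur, MMP13 by 1.27 (adjusted p = 0.00399) and MMP2 by 0.37 (adjusted p = 0.0103), both matrix metalloproteinases. In the femur, alternatives lost the calls of CHPF and MMP2 in 3 of 16, of CSGALNACT2 and CHST13 in 2, and of SLC35B2 and MMP13 in 1. In the TBT 1 rose, TGFB3 (0.29, adjusted p = 0.0325), a call lost in 9 of 17 alternatives.

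The other family members on the array were PRELP, OPTC, CHAD, CHADL, TSKU, PODN and NYX, of which NYX did not pass the filter. None of the 6 tested was called with stage, with medians of -0.21 in the femur and -0.05 in the TBT. CHADL, a chondroadherin-like protein of cartilage, was lower by 0.51 in each element, with adjusted p values of 0.0811 and 0.0559. Stages did not overlap for CHADL in the TBT, nor in the femur for TSKU (-0.295, adjusted p = 0.233) and PODN (0.405, adjusted p = 0.248). Arrays without overlap thus also occurred for genes that were not called.

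Markers of chondrocytes and of other cells also moved with stage. Among 16 chondrocyte genes, 2 rose and 4 fell in the femur, and 3 rose and 1 fell in the TBT. Their medians were -0.08 and 0.01. COMP was higher at E15 by 1.57 in the femur (adjusted p = 0.00331) and by 1.96 in the TBT (adjusted p = 0.000227). SOX9 differed by -0.51 in the femur (adjusted p = 0.019) and SOX5 by -0.31 in the TBT (adjusted p = 0.00955). Of 18 skeletal muscle genes, 8 fell in each element (medians -0.98 and -0.82). Of 12 leukocyte and osteoclast genes, 6 rose in the femur and 8 in the TBT (medians 0.53 and 0.69). Of 13 hypertrophic chondrocyte genes, 5 rose and 1 fell in the femur, and 3 rose and none fell in the TBT. The group means of the muscle list ran from 1.05 in E12 femur and 0.88 in E12 TBT to -0.13 and 0.02 at E15. Of 21 tendon and fibrous tissue genes, 3 rose and 2 fell in the femur, and 2 rose and 3 fell in the TBT (medians 0.16 and -0.01). DPT was higher at E15 by 1.25 in the femur (adjusted p = 0.0161) and by 1.04 in the TBT (adjusted p = 0.0205). OSR1 of the same list went the other way, with -0.84 in the femur (adjusted p = 0.0207) and -0.99 in the TBT (adjusted p = 0.00425). So did TWIST2 in the femur (-0.775, adjusted p = 0.00239) and FBLN1 in the TBT (-0.58, adjusted p = 0.00995). Of 10 osteoblast and periosteum genes, 3 rose and 1 fell in the femur (median 0.37) and 1 rose in the TBT (0.11). The lists share genes, so their calls are not separate. IBSP and RUNX2 count as osteoblast and hypertrophic genes, and MMP9 as a hypertrophic and a leukocyte or osteoclast gene. MMP13 counts as a hypertrophic and a processing gene, and COL14A1 as a collagen and a tendon gene. Of 12 endothelial genes, 3 rose and 1 fell in the femur (median 0.35) and 1 rose in the TBT (0.18). The part of these lists in the differences of LUM and KERA was not tested.

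**Figure D3:**
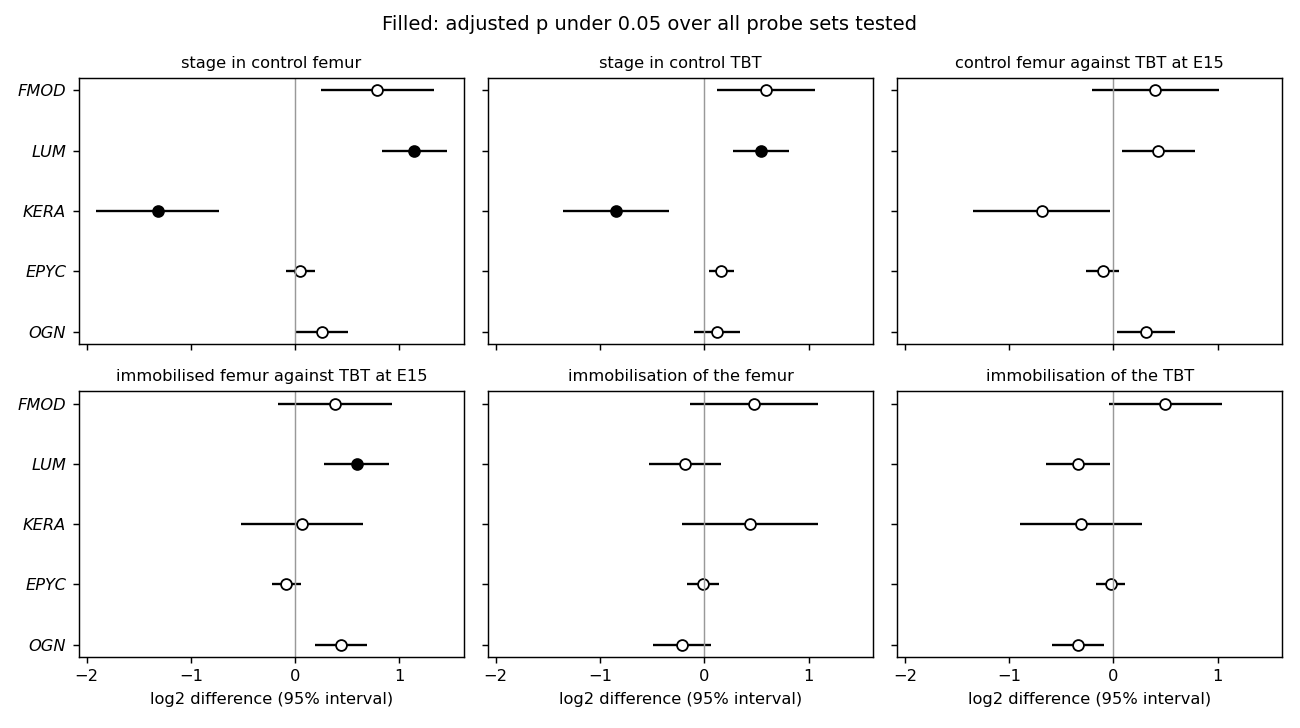
Log2 differences of the 5 genes in 6 comparisons, with 95% intervals from limma; filled points passed an adjusted p under 0.05. Stage is E15 minus the mean of E12 and E13. LUM and KERA are filled in both stage panels, and LUM alone among immobilised femur minus immobilised TBT.

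The second question was whether the elements differed. At E12 and E13 none of the 5 genes was called between femur and TBT (0.0545% of probe sets were), and the differences lay between -0.22 for KERA and 0.21 for FMOD. At E15 none was called in controls either (0.209% of probe sets). The 2 E15 femur arrays were above all 3 E15 TBT arrays for LUM and OGN and below them for KERA, which with so few arrays is a description only. The differences were 0.43 for LUM (SE 0.16, adjusted p = 0.239), 0.31 for OGN (SE 0.13, adjusted p = 0.281) and -0.69 for KERA (SE 0.31, adjusted p = 0.314). FMOD (0.40, adjusted p = 0.547) and EPYC (-0.10, adjusted p = 0.547) overlapped between the elements. All E15 femur arrays have code 05 and all E15 TBT arrays 07 or 09, so at E15 the element and the code cannot be told apart within the day.

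Among immobilised embryos, LUM was higher in femur than in TBT, and OGN lay close to the threshold. The control differences, 0.43 for LUM and 0.31 for OGN, had the same direction. The test of a difference between elements in immobilisation called neither gene. It gave 0.16 for LUM (adjusted p = 0.904) and 0.12 for OGN (adjusted p = 0.905), for femur minus TBT. LUM was 11.06, 10.58 and 10.68 in the immobilised femur and 10.32, 10.01 and 10.22 in the immobilised TBT. The groups did not overlap. The difference was 0.59 (SE 0.15, adjusted p = 0.0453), where 2.04% of probe sets were called. This call was lost in 9 of 14 alternatives, among them a block on the array code (0.46, adjusted p = 0.459), and the difference was 0.45 without immobilised femur replicate 1 (adjusted p = 0.185).

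OGN was 12.08, 12.01 and 12.20 in the immobilised femur and 11.72, 11.56 and 11.70 in the immobilised TBT. These groups did not overlap, with a difference of 0.44 (SE 0.12, adjusted p = 0.0654). FMOD was 0.38 higher (adjusted p = 0.603), KERA differed by 0.06 (adjusted p = 0.963) and EPYC by -0.09 (adjusted p = 0.66), each with overlapping arrays. The median of the 5 was 0.38, beside -0.01 over all probe sets.

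In the same comparison the collagen list had a median of 0.26, with COL6A2 (0.63, adjusted p = 0.0352) and COL24A1 (0.73, adjusted p = 0.0358) called and none lower. These calls were lost in 8 and 9 of 14 alternatives, with adjusted p up to 0.372 and 0.41. All 21 tendon and fibrous tissue genes tested were above 0 (median 0.32, 1 called). So were all 10 osteoblast and periosteum genes (median 0.59, 2 called). Among 13 hypertrophic genes, 12 were above 0 (median 0.26, 2 called), and ALPL was called in both of the last 2 lists. Other lists went the other way. All 6 sulfate and sugar-nucleotide supply genes were below 0 (median -0.27), with SLC35D1 called (-0.45, adjusted p = 0.0148). Among 16 chondrocyte genes, 12 were below 0 (median -0.09) and none was called. The mean deviation of the tendon list ran from 0.05 to 0.14 in the immobilised femur arrays and from -0.32 to -0.22 in the immobilised TBT arrays. The part of these lists in the LUM difference was not tested.

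**Figure D4:**
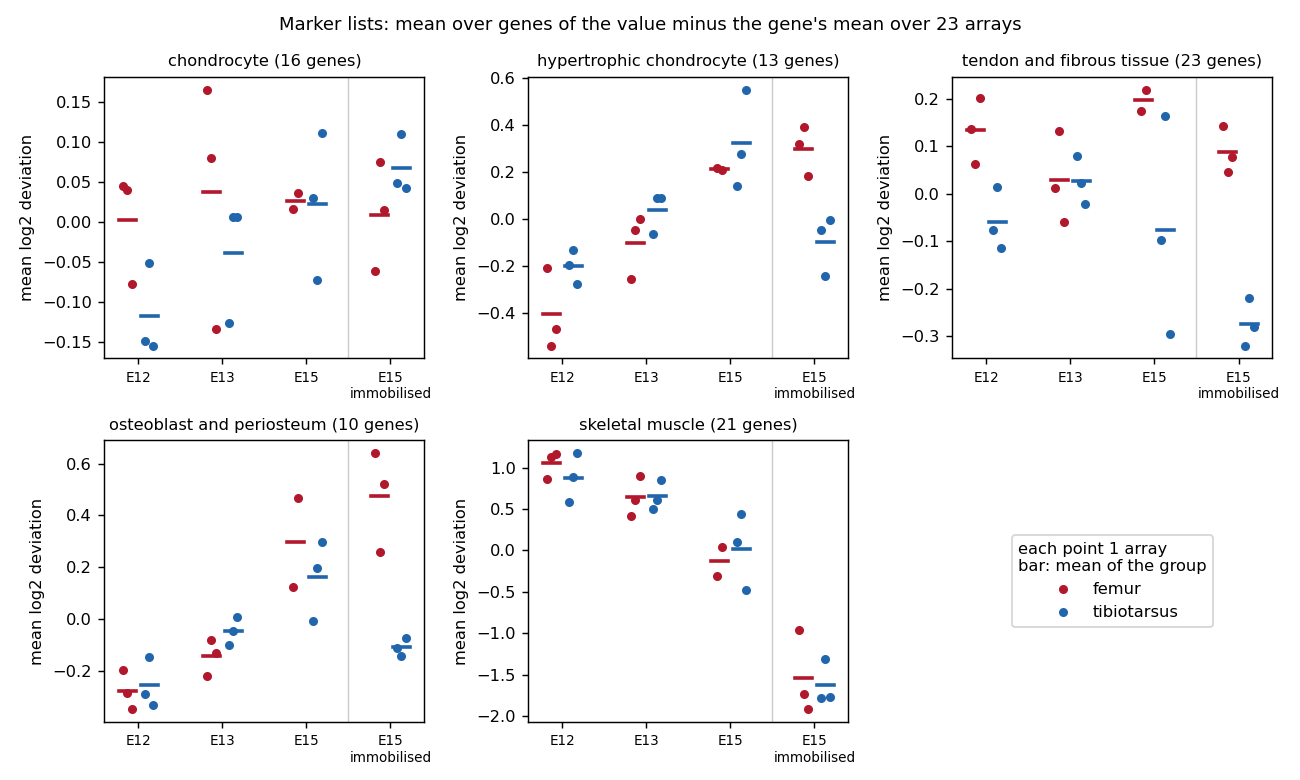
Mean log2 deviation of 5 marker lists on each array (the mean over a list's genes of the value minus that gene's mean over 23 arrays), by stage, treatment and element. Points are arrays and bars group means; the muscle list has group means between -1.63 and 1.05, a wider range than the other 4 lists.

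The third question was whether immobilisation changed the family at E15. None of the 5 genes was called in either element, and arrays that did not overlap are described without a count over all probe sets. FMOD was higher by a like amount in both, OGN and LUM were lower in both, KERA differed in opposite directions, and EPYC was level. Among all probe sets, 4.39% were called in the femur and 5.74% in the TBT.

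FMOD was 11.63, 11.29 and 11.81 in the immobilised femur, beside 10.97 and 11.23 in its control. It was 11.21, 11.34 and 11.04 in the immobilised TBT, beside 10.68, 11.06 and 10.35. The femur arrays did not overlap and the TBT arrays did. The differences were 0.48 in the femur (SE 0.29, 95% interval -0.13 to 1.09, adjusted p = 0.405) and 0.50 in the TBT (SE 0.26, -0.05 to 1.05, adjusted p = 0.311).

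OGN was 12.08, 12.01 and 12.20 in the immobilised femur beside 12.25 and 12.37 in controls, and 11.72, 11.56 and 11.70 in the immobilised TBT beside 11.96, 12.20 and 11.83. In each element every immobilised array was below every control. The differences were -0.21 in the femur (SE 0.13, adjusted p = 0.418) and -0.34 in the TBT (SE 0.12, adjusted p = 0.116).

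LUM was 11.06, 10.58 and 10.68 in the immobilised femur beside 10.82 and 11.09 in controls, which overlapped. In the TBT it was 10.32, 10.01 and 10.22 beside 10.60, 10.60 and 10.37, which did not. The differences were -0.18 in the femur (SE 0.16, adjusted p = 0.602) and -0.34 in the TBT (SE 0.15, adjusted p = 0.214). Leaving out 1 array moved the femur difference between -0.0467, without control replicate 2, and -0.325, without immobilised replicate 1.

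KERA was 8.81, 8.67 and 8.24 in the immobilised femur, above both controls at 8.13 and 8.14. In the TBT it was 8.26, 8.81 and 8.46 beside 8.85, 9.10 and 8.52, which overlapped. The differences were 0.44 in the femur (SE 0.31, adjusted p = 0.486) and -0.31 in the TBT (SE 0.28, adjusted p = 0.602). The test of their difference gave 0.75 (adjusted p = 0.651), and 0.182% of probe sets were called in it.

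EPYC was 12.75, 12.99 and 12.84 in the immobilised femur and 12.98, 12.92 and 12.94 in the immobilised TBT, overlapping its controls in both. The differences were -0.01 (95% interval -0.17 to 0.15) in the femur and -0.03 (-0.17 to 0.11) in the TBT.

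The effect of immobilisation averaged over both elements was computed as well, a comparison chosen after the values were seen. It called 11.6% of probe sets and none of the 5 genes. OGN was nearest, at -0.28 (SE 0.09, adjusted p = 0.0548). FMOD stood at 0.49 (SE 0.19, adjusted p = 0.118), LUM at -0.26 (SE 0.11, adjusted p = 0.142), KERA at 0.06 and EPYC at -0.02. Within code 05, which holds all E15 femur arrays, the differences of FMOD and OGN were those of the femur itself. In the TBT, OGN differed by -0.18 within code 07 and -0.57 within code 09, and FMOD by 0.70 and 0.13. These rest on 1 immobilised array in code 07 and 1 control array in code 09.

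**Figure D5:**
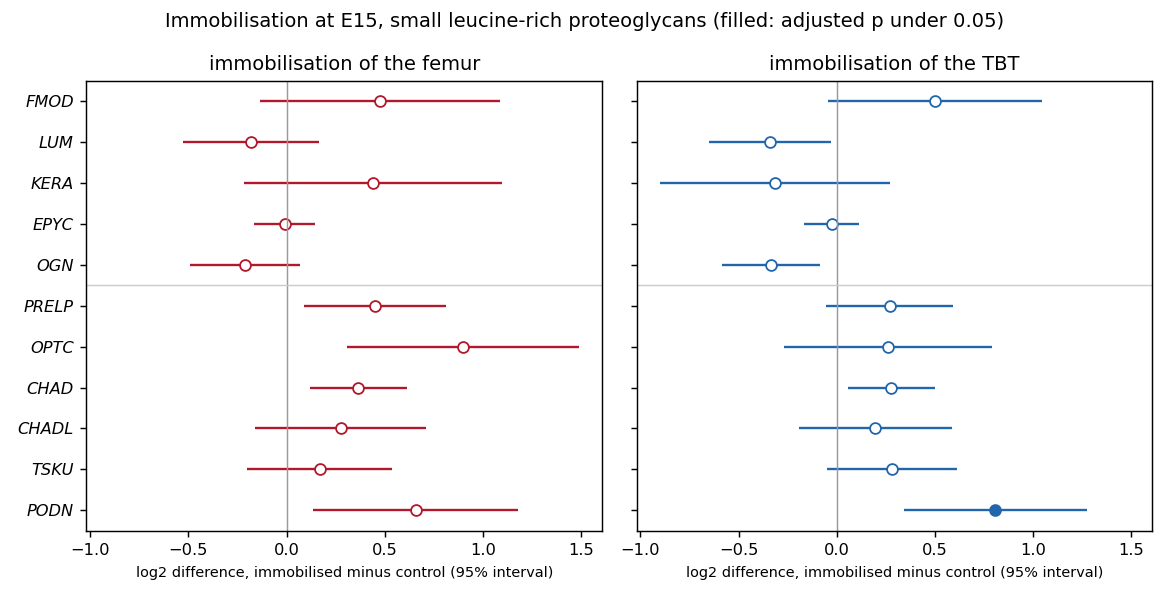
Log2 difference, immobilised minus control at E15, with 95% intervals, for the 5 genes (above the line) and 6 other family members (below it), in femur (left) and TBT (right). The 6 other members all lie above 0 in both panels; only PODN in the TBT is filled, meaning an adjusted p under 0.05.

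All 6 other family members tested lay above 0 with immobilisation in each element, with medians of 0.41 in the femur and 0.27 in the TBT, beside 0.00 and 0.01 over all probe sets. The 5 genes had medians of -0.01 and -0.31. PODN (podocan), a collagen-binding member, rose in the TBT. It was 9.42, 9.13 and 9.42 in the immobilised TBT beside 8.45, 9.13 and 7.97, with 1 array of each group at the same value. The difference was 0.81 (SE 0.22, adjusted p = 0.0393), a call lost in 9 of 15 alternatives, and 0.53 without control TBT replicate 3 (adjusted p = 0.236).

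In the femur PODN was 9.19, 9.51 and 9.06 beside 8.57 and 8.62, with no overlap and a difference of 0.66 (SE 0.25, adjusted p = 0.148). CHAD (chondroadherin), a cartilage protein that binds integrins and type II collagen, was 11.91, 11.90 and 11.95 in the immobilised femur beside 11.58 and 11.53. In the TBT it was 11.78, 12.01 and 11.71 beside 11.59, 11.57 and 11.51. Neither pair overlapped, and the differences were 0.37 (adjusted p = 0.0892) and 0.28 (adjusted p = 0.148). Averaged over both elements, CHAD rose by 0.32 (adjusted p = 0.0137) and PODN by 0.73 (adjusted p = 0.00842). This average was chosen after the values were seen, called 11.6% of probe sets and was not put through the alternatives. In the TBT, PODN differed by 1.21 within code 07 but by 0.145 within code 09, and CHAD by 0.23 and 0.29. With 1 immobilised array in code 07 and 1 control array in code 09, a difference between codes cannot be told from one between arrays.

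OPTC (opticin), known from the vitreous of the eye, was 6.70, 6.87 and 7.12 in the immobilised femur beside 6.09 and 5.91. In the TBT it was 6.23, 6.41 and 6.44 beside 6.25, 5.82 and 6.23. The controls lay close to the array medians of 5.78 to 5.85, so this probe set was dim there. Its differences were 0.90 in the femur (adjusted p = 0.0789) and 0.26 in the TBT (adjusted p = 0.639). PRELP, which binds collagen and heparan sulfate, was 0.45 higher in the femur (adjusted p = 0.151) and 0.27 higher in the TBT (adjusted p = 0.366). CHADL and TSKU (tsukushi) had differences between 0.17 and 0.28 in both elements.

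Of the 12 collagen genes, 3 fell with immobilisation in the TBT and none rose, and none was called in the femur. The share of all probe sets called was 4.39% in the femur and 5.74% in the TBT. The 3 were again the type VI chains, COL6A2 (-0.76, adjusted p = 0.00573), COL6A3 (-0.68, adjusted p = 0.00759) and COL6A1 (-0.59, adjusted p = 0.0411). The COL6A1 call was lost in 6 of 15 alternatives, with -0.31 without control TBT replicate 2 (adjusted p = 0.106). The stage comparison in the TBT shares its E15 control arrays with this one. Averaged over both elements, COL6A2 (-0.675, adjusted p = 0.000785), COL6A3 (-0.53, adjusted p = 0.00315) and COL6A1 (-0.49, adjusted p = 0.0154) were called lower. That average takes in the same TBT arrays and was chosen after the values were seen, so it is no separate support. It called 11.6% of probe sets. None of the 12 was called for the difference between the elements in immobilisation. Of the keratan sulfate genes, CHST1, a sulfotransferase of the chain, fell in the femur by 0.77 (adjusted p = 0.0168) and no other was called in either element. The average over both elements, which takes in the same femur arrays, gave -0.55 for CHST1 (adjusted p = 0.00537). CHST15, which adds a second sulfate to chondroitin, fell by 0.57 in the TBT (adjusted p = 0.0191). It was the only call there among 18 linker and chondroitin genes, near the 5.74% of all probe sets called. The CHST1 call was lost in 4 of 14 alternatives and the CHST15 call in 4 of 15, among them the effect averaged over both elements (-0.25, adjusted p = 0.121).

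Skeletal muscle genes had the most calls among the marker lists with immobilisation, 13 of 18 lower in the femur and 14 of 18 in the TBT, with medians of -1.72 and -1.77. Of 21 tendon and fibrous tissue genes, 3 fell and 1 rose in each element, with medians of 0.12 and 0.00. DPT (dermatopontin), which binds collagen and decorin, fell in both, with differences of -3.18 in the femur (adjusted p = 5.57e-05) and -3.21 in the TBT (adjusted p = 9.02e-06). TNMD (tenomodulin), a tendon membrane protein, rose by 1.17 (adjusted p = 0.0128) and 1.12 (adjusted p = 0.00629). Of 12 leukocyte and osteoclast genes, 10 were below 0 in the TBT and 2 of them fell (median -0.43), while none was called in the femur. Of 10 osteoblast and periosteum genes, 1 fell in the femur and 2 in the TBT. These were POSTN in both elements, also counted among the tendon genes, and ALPL in the TBT, also counted among the hypertrophic genes. Hypertrophic chondrocyte genes had medians of 0.05 in the femur and -0.45 in the TBT, where 12 of 13 were below 0 and 1 was called lower. The chondrocyte list had medians of 0.02 and 0.10, with 1 of 16 called lower in the femur. Beside these counts, 4.39% of all probe sets were called in the femur and 5.74% in the TBT. The single calls of the chondrocyte and hypertrophic lists lie near those shares. The part of these lists in the values of the family was not tested.

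Over the 8 groups, the order of the levels differed between genes. LUM means rose from 9.71 in E13 femur to 10.96 in E15 control femur, with all 4 E15 groups above all E12 and E13 groups. KERA ran from 8.14 in E15 control femur to 9.74 in E12 femur, with the 4 E15 groups lowest. FMOD ran from 9.87 in E12 TBT to 11.58 in the immobilised femur, and the immobilised groups were its highest 2. OGN ran from 11.66 in the immobilised TBT to 12.31 in E15 control femur. Most neighbours in these orders overlapped in their arrays. Those that did not were E13 and E12 femur, and immobilised and control TBT at E15, for LUM. For KERA they were E15 control femur and the immobilised TBT, for FMOD E12 TBT and E12 femur, for OGN immobilised and control femur at E15, and for EPYC E15 control femur and the immobilised TBT.

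Across the 23 arrays, which share groups and codes, KERA and FMOD had a Pearson r of -0.75, LUM and KERA of -0.59 and LUM and FMOD of 0.68. OGN had an r of 0.46 with LUM, and EPYC lay between -0.50 with KERA and 0.37 with FMOD. These describe the arrays and carry no test.

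For each gene, the 3 genes of most alike pattern over the 23 arrays were taken from 7117 genes by Pearson's r. Nearest to LUM were ACAP3 (0.92), COL21A1 (0.91), a fibril-associated collagen, and ARFGAP3 (0.87). Nearest to KERA were DBN1 (0.91), an actin-binding protein, EGFL6 (0.90), a secreted matrix protein, and NONO (0.89), a nuclear RNA-binding protein. Nearest to FMOD were C1QTNF8 (0.92), FNDC1 (0.92) and STARD13 (0.91). OGN had AGTR2 (0.89), an angiotensin II receptor, C1QTNF2 (0.87) and MXRA5 (0.86), a matrix protein. EPYC, with the narrowest range, had lower values, with GALNT18 (0.81), a glycosyltransferase, LYZ (0.79), lysozyme, and FKBP14 (0.78), a folding enzyme for collagens of the endoplasmic reticulum.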

How the data were processed

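RNA was hybridised to Affymetrix chicken arrays. The log2 values used here are those the authors deposited, made by RMA (background correction, quantile normalisation and 1 value per probe set). The sample records name affy and the methods aroma.affymetrix, with versions and genome build not given in the sources used here, so no coordinates are printed. Of 20804 probe sets, 12300 carry 1 symbol, 256 several and 8248 none. The methods' filter, an SD over 10 on the linear scale, left 11004.

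Group means of 8 groups over 23 arrays were fitted with limma 3.58.1 in R 4.3.3 (15 residual degrees of freedom), with p-values adjusted by Benjamini-Hochberg over 11004 probe sets and intervals at 95%. The authors' significance analysis (SAM) was not run, since 2 or 3 arrays per group allow few permutations. The fit was run on simulated arrays with shifts placed in the immobilised TBT alone and no effect of the code. It placed no shift in the E15 control femur, so it does not test that group or the code. The 5 genes, the other family members, 3 genes of most alike pattern for each, and up to 4 called genes of lowest p per list are named. Members and lists were chosen with earlier results of these data known. Alternatives were no filter, only the groups compared, array code or replicate number as a block, renormalisation, median centring, mean over a gene's probe sets, array quality weights and each array left out. The number of arrays limits the precision.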

Additional observations from a re-analysis of the deposited data

How the results depend on the processing

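There were 105 results for single genes. LUM with stage in the femur kept its call in all 16 alternatives (adjusted p 4.59e-05 to 0.0192). LUM with stage in the TBT kept it in 16 of 17, the exception being the fit without E15 TBT replicate 2 (0.50, adjusted p = 0.0513). The mean over a gene's probe sets leaves the values of the 5 genes unchanged, since each has 1 probe set, so it is no separate check of them. The number of the 5 genes called with stage in the femur was 4 with array quality weights, which added FMOD (adjusted p = 0.00834) and OGN (adjusted p = 0.0366), 3 with quantile normalisation again, which added OGN, and 1 with only the groups compared. Leaving out 1 array gave 1 to 3. With stage in the TBT it was 1 with the array code as a block (KERA -0.70, adjusted p = 0.0916) and 1 with no filter (adjusted p = 0.0552), 3 with quality weights, which added FMOD (adjusted p = 0.0389), 3 with quantile normalisation again, which added EPYC (adjusted p = 0.0496), and 1 to 2 when 1 array was left out. For immobilised femur against TBT it was 0 with the code as a block, no filter, only the groups compared or the replicate block (LUM 0.59, adjusted p = 0.0622), 2 with quality weights or quantile normalisation again, which added OGN, and 0 to 1 when 1 array was left out. The causes were not tested.

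Some differences changed sign in alternatives, none of them called. KERA in immobilised femur against TBT was -0.18 with the code as a block and -0.0617 to 0.23 when 1 array was left out. EPYC with immobilisation of the femur was 0.0139 after quantile normalisation again and -0.075 to 0.045 when 1 array was left out. KERA with immobilisation of the TBT was -0.31, and 0.0625 in the effect averaged over both elements. That average is a different comparison, which takes in the femur difference of 0.44. For the difference between elements in immobilisation, FMOD was 0.0547 with the code as a block, 0.0702 with the replicate block, 0.106 with quality weights and -0.205 to 0.15 when 1 array was left out, and EPYC was -0.0328 with quality weights and -0.0483 to 0.0717 when 1 array was left out. With the code as a block, FMOD was -0.0355 for the difference between elements in stage, and LUM 0.0017 and KERA 0.011 for E13 against E12.

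The labels do not say whether femur and TBT of 1 replicate number came from the same embryos, and the fit took them as unpaired. Arrays of 1 number in different groups had a mean correlation of deviations of 0.0032 (-0.17 to 0.21). Most of those 77 pairs join different days or treatments, so the mean cannot decide whether femur and TBT were paired. The replicate block therefore describes a number only. With 2 or 3 pooled samples per group, the number of arrays limits FMOD and KERA most, whose pooled SDs within groups were 0.34 and 0.36.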
